A study of Mus musculus with 8 samples.

Results

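Cytosolic nucleic acid sensors are proteins that bind foreign or misplaced RNA and DNA inside the cell and start an interferon response. Here they are 10 genes, chosen by symbol, of the 30445 genes in the deposited table. They are the RNA receptors Ddx58 (RIG-I), Ifih1 (MDA5) and Dhx58 (LGP2), their adaptor Mavs, the Z-form nucleic acid receptor Zbp1, the RNA-activated kinase Eif2ak2 (PKR), the DNA-sensing pair Cgas and Sting1, and the kinases Tbk1 and Ikbke (IKK epsilon). The table lists Cgas and Sting1 under these symbols, not under the older Mb21d1 and Tmem173. All 10 passed the filter on low counts.

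The study measured poly(A) RNA of hearts of C57 mice, collected 8 weeks after surgery for transverse aortic constriction. In this surgery the aorta is tied narrower so that the left ventricle pumps against raised pressure. There were 4 libraries labelled Mertk knockdown and 4 wildtype libraries, and hearts of both groups had been operated. Mertk is a receptor with which macrophages take up dying cells. The labels give no age, no method or cell type of the knockdown, and no statement that each replicate was a separate mouse.

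RIG-I binds short double-stranded RNA with triphosphate ends, MDA5 binds long double-stranded RNA, and both pass the signal to MAVS on the mitochondrial surface. cGAS makes a cyclic dinucleotide on contact with DNA, and STING on the endoplasmic reticulum binds it. Both routes meet at the kinases TBK1 and IKK epsilon, which phosphorylate the transcription factors IRF3 and IRF7, and interferon in turn raises transcription of several of the sensors themselves, Ifih1, Ddx58, Dhx58, Zbp1 and Eif2ak2 among them. In heart tissue, mitochondrial DNA and RNA from damaged or dying cells are known possible ligands.

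The label was checked first on the targeted gene. Mertk had 12.8, 12.3, 10.6 and 11.8 CPM (a gene's counts relative to the TMM-adjusted library total) in the 4 libraries labelled Mertk knockdown, against 11.0, 10.4, 10.5 and 12.3 CPM in the wildtype libraries. The groups overlapped, and Mertk was not lower in the labelled knockdown libraries (log2 fold change 0.10, 95% interval -0.14 to 0.34, adjusted p = 0.766 in edgeR's quasi-likelihood test). Every direction below is therefore one between libraries as labelled, and bulk heart RNA does not show Mertk in macrophages alone.

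Total counts were 63378755 to 68762911 in the labelled knockdown libraries and 59287621 to 71571173 in the wildtype libraries. Libraries stood apart in other tissues' transcripts before any sensor is considered. The 18 hepatocyte markers summed to 208 to 290.1 CPM in the 4 labelled knockdown libraries. In the wildtype libraries the sum was 280.1, 12.4, 35.6 and 17.0 CPM for replicates 1 to 4, so that replicate 1 alone was at the level of the labelled knockdown libraries. None of the 18 passed the test, and several were at 0 in 1 or 2 libraries. The 15 macrophage markers summed to 273 to 325 CPM in the labelled knockdown libraries, against 325, 458, 322 and 492 CPM in wildtype replicates 1 to 4, and none was at 0 in any library. By edgeR's adjusted p 0 of the 15 passed, while 7 had an unadjusted p under 0.05, all lower, and DESeq2 called 2 lower, Cd163 and Ctss. Of all tested genes, edgeR's adjusted p called 0.371% lower and 0.275% higher. At an unadjusted p under 0.05, 6.32% of all tested genes were lower and 6.11% higher. DESeq2 called 1.62% of its 20305 genes lower and 1.26% higher. These shares apply to the other marker lists below as well. Of the 15, 14 lay below 0, as did 8913 of all 17787 tested genes, and the median log2 fold change of the 15 was -0.49. The 3 tested markers of plasmacytoid dendritic cells summed to 9.58 to 13.6 CPM in the labelled knockdown libraries and 18.9 to 32.3 CPM in the wildtype libraries, and 1 of them passed, Bst2, which many cell types make under interferon (edgeR's adjusted p = 0.0340). Nearly all of that sum was Bst2, with means of 11.0 CPM in the labelled knockdown libraries and 25.4 CPM in the wildtype libraries. In the same order, Ccr9 had means of 0.204 and 0.224 CPM and Ly6d 0.315 and 0.209 CPM. Siglech, the defining marker of those cells, was at 0 in 6 of the 8 libraries. The 8 endothelial markers summed to 681 to 865 CPM in the labelled knockdown libraries and 561 to 653 CPM in the wildtype libraries, without overlap. All 8 lay above 0 with a median of 0.28, 5 had an unadjusted p under 0.05 and DESeq2 called 2 higher, Kdr and Cdh5, but 0 passed edgeR's adjusted p. In the monocyte, lymphocyte, fibroblast, atrial and cardiomyocyte lists edgeR called 0 genes, and DESeq2 called Ms4a4c of the monocyte list lower (adjusted p = 0.000905) and Myh6 of the cardiomyocyte list higher (adjusted p = 0.00915). The 5 tested atrial markers differed widely within both groups. They summed to 184 to 1985 CPM in the labelled knockdown libraries and 313 to 2345 CPM in the wildtype libraries. The highest of each group were labelled knockdown replicate 4 and wildtype replicate 2. Atrial Myl7 was at 0 in 3 libraries and reached 201 CPM. Ventricular muscle transcripts were abundant throughout, with the 10 cardiomyocyte markers at 50910 to 57840 CPM in the labelled knockdown libraries and 38030 to 48990 CPM in the wildtype libraries.

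None of the 10 sensors and kinases passed edgeR's adjusted p of 0.05, where 0.647% of the 17787 tested genes did, 0.371% lower and 0.275% higher in the labelled knockdown libraries. At an unadjusted p under 0.05, 4 of the 10 were lower and 0 were higher (Ifih1, Ddx58, Zbp1 and Eif2ak2), against 6.32% lower and 6.11% higher of all tested genes. DESeq2 called 3 of the 10, Ifih1, Zbp1 and Eif2ak2, all lower in the labelled knockdown libraries, where it called 1.62% of 20305 genes lower and 1.26% higher. The median log2 fold change of the 10 was -0.41 with 7 below 0. Over all 17787 tested genes the median was -0.00071 with 8913 below 0. In such bulk tissue, fewer cells of a type and less RNA per cell cannot be told apart.

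**Figure D1:**
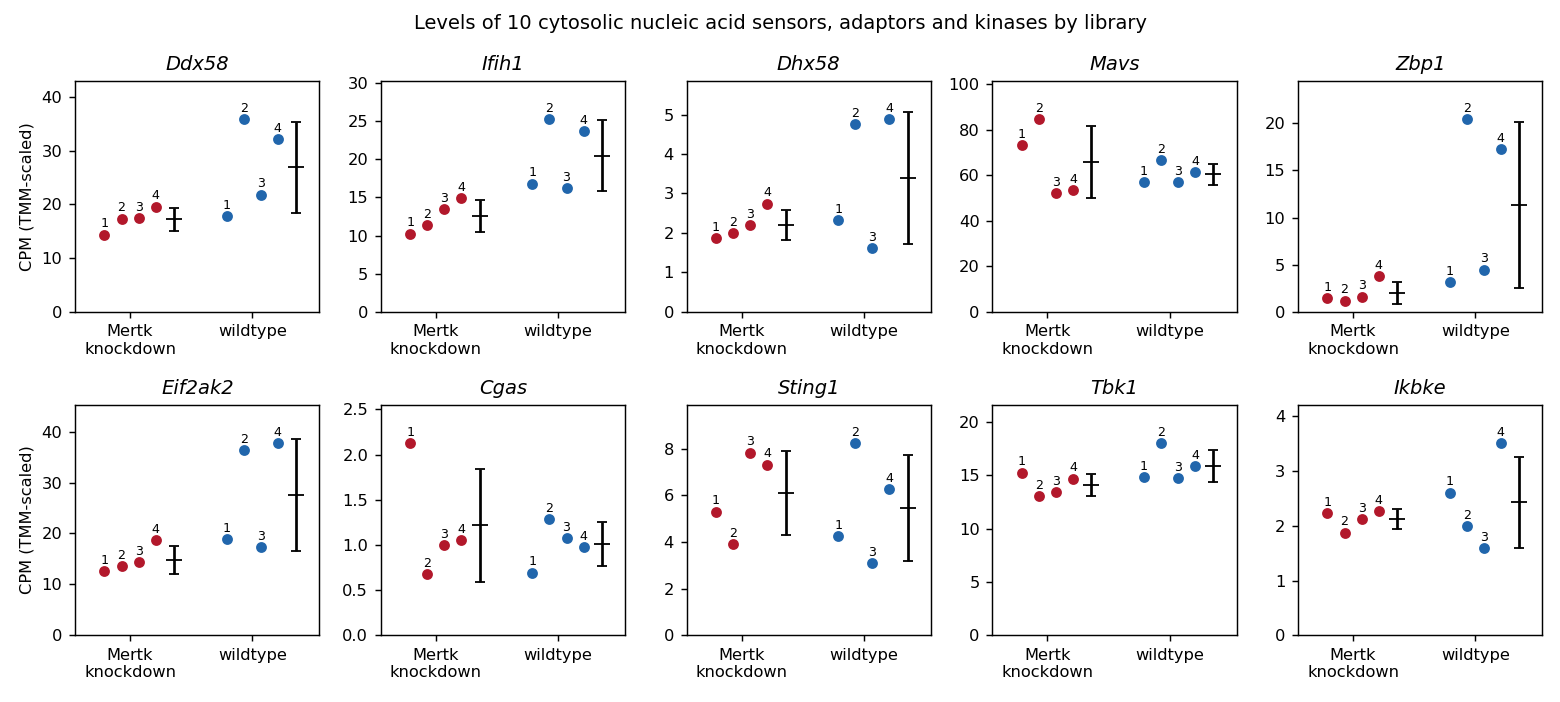
Level of each of the 10 genes in each library, in TMM-scaled CPM on a linear axis from 0; points are libraries with their replicate numbers, the 4 labelled Mertk knockdown (red) left of the 4 wildtype (blue), and black bars are group means ± SD. Ifih1 is the one panel in which the groups do not overlap, and wildtype replicates 2 and 4 are the highest points for Zbp1, Eif2ak2, Ddx58, Ifih1, Dhx58 and Tbk1.

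Among the RNA receptors, the differences were of like size and all below 0. Ifih1 (ENSMUSG00000026896, mm10 chromosome 2, 62595798 to 62646211, minus strand), the MDA5 gene, had 10.3, 11.4, 13.5 and 14.9 CPM in the labelled knockdown libraries, against 16.8, 25.2, 16.2 and 23.7 CPM in the wildtype libraries. Every labelled knockdown library lay below every wildtype library, which held for 3.9% of all tested genes in this direction (8.07% in either direction) and for no other member. The means were 12.5 ± 2.09 and 20.5 ± 4.66 CPM (SD, n = 4 each), a log2 fold change of -0.71 (SE 0.18, 95% interval -1.11 to -0.32) with edgeR's adjusted p = 0.128 and DESeq2's adjusted p = 0.0131. An exact two-sided permutation test over the libraries gave p = 0.0286 on log2 CPM, the smallest that 4 against 4 can give. On the authors' FPKM (fragments relative to gene length and library depth) the groups overlapped, at 1.11 to 1.70 against 1.67 to 2.88 FPKM, with an exact permutation p of 0.0571.

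Ddx58 (ENSMUSG00000040296, chromosome 4, 40203773 to 40239825, minus strand), which encodes RIG-I, had 14.3, 17.3, 17.5 and 19.6 CPM in the labelled knockdown libraries, against 17.8, 35.8, 21.8 and 32.1 CPM in the wildtype libraries. The highest labelled knockdown library exceeded wildtype replicate 1, and wildtype replicates 2 and 4 stood above the other 6 libraries. On the log2 scale the difference came to -0.65 (SE 0.21, 95% interval -1.11 to -0.18), with edgeR's adjusted p = 0.242 and DESeq2's adjusted p = 0.0767. The exact permutation p was 0.0571 on log2 CPM and 0.114 on log2 FPKM.

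Dhx58 (ENSMUSG00000017830, chromosome 11, 100694884 to 100704271, minus strand) encodes LGP2, a relative without the signalling domains that modulates the other receptors. It was low, with 1.87, 1.99, 2.19 and 2.74 CPM in the labelled knockdown libraries, against 2.32, 4.75, 1.61 and 4.87 CPM in the wildtype libraries. The lowest value of all 8 was wildtype replicate 3, and the log2 fold change of -0.62 (95% interval -1.39 to 0.14, edgeR's adjusted p = 0.519) was within the spread of the libraries. An antisense gene, Dhx58os, overlaps it with 53 counts in all 8 libraries together.

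**Figure D2:**
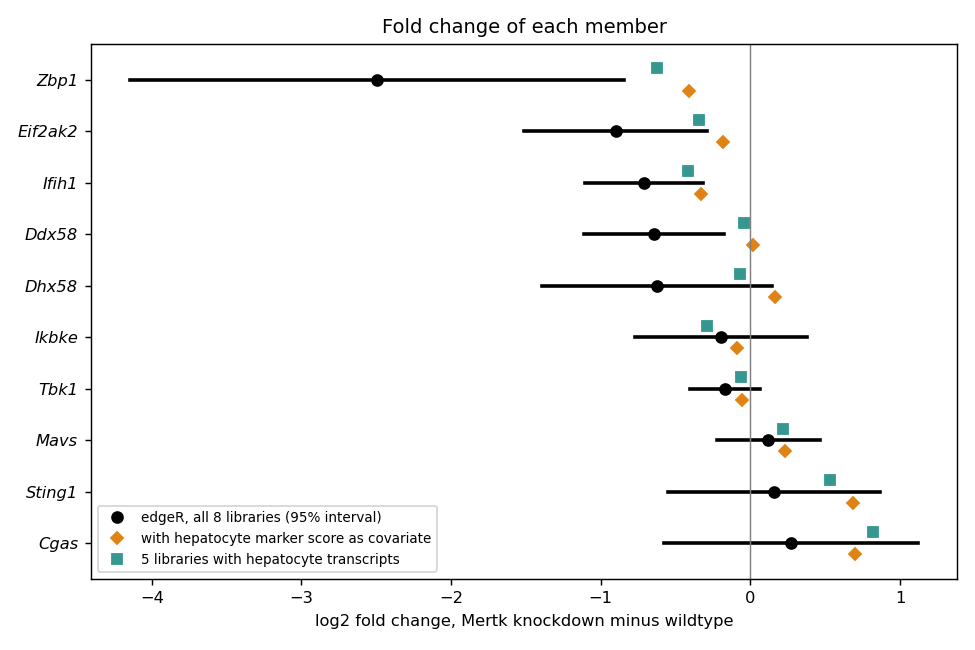
log2 fold change of each of the 10 genes, labelled Mertk knockdown over wildtype, with black points and lines for edgeR's quasi-likelihood estimate and its 95% interval on 8 libraries, diamonds for the fit with the hepatocyte marker score as a covariate, and squares for the 5 libraries with hepatocyte transcripts. The intervals of Zbp1, Eif2ak2, Ifih1 and Ddx58 lie below 0 without adjustment for the number of genes, and those of the other 6 include 0.

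Promoter sequence is shown for the receptor and kinase genes whose start holds the core of an interferon-stimulated response element, the motif that the interferon-activated factor ISGF3 binds. The motif searched was GAAA, any 2 bases and GAAA again, on both strands (TTTC, any 2 bases and TTTC when read on the opposite strand), in RefSeq windows of 250 bases before to 50 bases after each transcript start, build GRCm38.p6, which has the coordinates of mm10. Of the 10 genes, 7 had a window (Ifih1, Ddx58, Mavs, Eif2ak2, Cgas, Tbk1 and Ikbke), and Dhx58, Zbp1 and Sting1 were not matched. The core was in 3 of the 7, Ifih1, Ddx58 and Eif2ak2, and in 3.99% of all 27025 genes with a window. The sequences run 5′ to 3′ on the gene's strand, with the core in capitals and up to 10 bases on each side.
Ifih1, chr2:62646206-62646233, minus strand, core from base +33: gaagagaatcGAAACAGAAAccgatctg
Ddx58, chr4:40239804-40239833, minus strand, core on the opposite strand from base +3: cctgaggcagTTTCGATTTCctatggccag
Eif2ak2, chr17:78882535-78882564, minus strand, core from base +19: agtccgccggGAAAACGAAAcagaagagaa
None of these 3 genes passed edgeR's adjusted p, and any relation of the core to the differences between groups was not tested. A second motif, TTC, any 3 bases and GAA, the core of gamma-activated sites, which reads the same on both strands, was found in 1 of the 7, Eif2ak2, and in 9.55% of all genes with a window.
Eif2ak2, chr17:78882732-78882760, minus strand, core from base -178: ctgcagagctTTCCCAGAAtggaagccag
A match is a run of letters in the window and was not measured as a bound site.

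Mavs (ENSMUSG00000037523, chromosome 2, 131234063 to 131248025, plus strand), the adaptor on the mitochondrial outer membrane, did not follow its receptors. It had 73.1, 84.6, 52.2 and 53.3 CPM in the labelled knockdown libraries, against 56.9, 66.7, 57.0 and 61.5 CPM in the wildtype libraries. The labelled knockdown libraries held both the highest and the lowest values, and the interval of the log2 fold change ran from -0.22 to 0.47 around 0.12 (edgeR's adjusted p = 0.821). Without labelled knockdown replicate 2 the difference was -0.023.

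Zbp1 (ENSMUSG00000027514, chromosome 2, 173206612 to 173218923, minus strand) binds left-handed Z-form RNA and DNA and can start necroptotic cell death through RIPK3. It had 1.48, 1.18, 1.60 and 3.77 CPM in the labelled knockdown libraries, against 3.11, 20.4, 4.46 and 17.2 CPM in the wildtype libraries. Wildtype replicates 2 and 4 stood far above the other 6 libraries, and labelled knockdown replicate 4 exceeded wildtype replicate 1. The means were 2.01 ± 1.19 and 11.3 ± 8.80 CPM (SD, n = 4 each), and the log2 fold change of -2.49 was the farthest from 0 of the 10 and the least precise (SE 0.71, 95% interval -4.14 to -0.84). edgeR's adjusted p was 0.208, DESeq2's adjusted p was 0.0250 and the exact permutation p was 0.0571. The highest wildtype library had 6.57 times the lowest.

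Eif2ak2 (ENSMUSG00000024079, chromosome 17, 78852564 to 78882573, minus strand) encodes PKR, which halts translation by phosphorylating the initiation factor eIF2 when bound to double-stranded RNA. It had 12.6, 13.5, 14.4 and 18.6 CPM in the labelled knockdown libraries, against 18.9, 36.4, 17.4 and 37.7 CPM in the wildtype libraries. The overlap was narrow, since labelled knockdown replicate 4 was above wildtype replicate 3 and below the others. The means of 14.8 ± 2.67 and 27.6 ± 11.0 CPM (SD, n = 4 each) gave a log2 fold change of -0.90 (SE 0.27, 95% interval -1.51 to -0.29). edgeR's adjusted p was 0.209 and DESeq2's adjusted p was 0.0207. The exact permutation p was 0.0571 on log2 CPM and 0.0857 on log2 FPKM.

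The DNA-sensing pair gave no difference beyond the libraries' spread. Cgas (ENSMUSG00000032344, chromosome 9, 78430526 to 78443237, minus strand), the enzyme that makes the second messenger, had 2.13, 0.68, 1.003 and 1.06 CPM in the labelled knockdown libraries, against 0.69, 1.28, 1.08 and 0.98 CPM in the wildtype libraries. Labelled knockdown replicate 1 alone stood above the rest, and without it the log2 fold change was -0.14, against 0.27 with all 8 libraries (95% interval -0.58 to 1.12, edgeR's adjusted p = 0.837). At 44 to 141 counts per library, Cgas had the fewest reads of the 10.

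Sting1 (ENSMUSG00000024349, chromosome 18), the receptor of that messenger, had 5.31, 3.93, 7.83 and 7.32 CPM in the labelled knockdown libraries, against 4.24, 8.24, 3.11 and 6.26 CPM in the wildtype libraries. All 4 labelled knockdown values lay within the wildtype range. The difference was 0.16 on the log2 scale (95% interval -0.55 to 0.86, edgeR's adjusted p = 0.893), and it was -0.035 without wildtype replicate 3.

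Of the kinases that act below both routes, Tbk1 was the steadier. Tbk1 (ENSMUSG00000020115, chromosome 10, 121546455 to 121586787, minus strand), the main kinase of IRF3, had 15.2, 13.1, 13.4 and 14.7 CPM in the labelled knockdown libraries, against 14.9, 18.0, 14.8 and 15.8 CPM in the wildtype libraries. The groups overlapped, and the difference of -0.17 on the log2 scale (SE 0.10, 95% interval -0.40 to 0.06, edgeR's adjusted p = 0.567) had the shortest interval of the 10.

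Ikbke (ENSMUSG00000042349, chromosome 1, 131254343 to 131279606, minus strand) encodes the inducible relative of TBK1. It had 2.23, 1.87, 2.12 and 2.26 CPM in the labelled knockdown libraries, against 2.60, 1.99, 1.60 and 3.50 CPM in the wildtype libraries. All 4 labelled knockdown values lay within the wildtype range, and the log2 fold change of -0.19 (95% interval -0.77 to 0.38, edgeR's adjusted p = 0.827) was 0.045 without wildtype replicate 4. A pair of predicted genes on the other strand overlap it, with 33 and 4 counts over all 8 libraries.

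Related genes were also set against each other within each library, as log2 ratios of FPKM, which removes library scaling. The Ikbke to Tbk1 ratio was -3.97 ± 0.0618 in the labelled knockdown libraries and -4.00 ± 0.517 in the wildtype libraries (SD, n = 4 each), with an exact permutation p of 0.971. The Dhx58 to Ddx58 ratio was -1.88 ± 0.121 against -1.98 ± 0.465 in wildtype (exact permutation p = 0.886, 0.971 when adjusted over the 3 ratios). For Cgas over Sting1 it was -3.00 ± 0.748 against -2.97 ± 0.574 in wildtype (exact permutation p = 0.914, 0.971 when adjusted over the 3 ratios). None of these ratios differed beyond the spread of the libraries, and leaving out each library in turn moved the differences between -0.39 and 0.26 on the log2 scale.

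Per length of gene, Mavs was the most abundant of the 10, at 17.9 ± 4.01 FPKM in the labelled knockdown libraries and 16.4 ± 1.91 FPKM in the wildtype libraries (SD, n = 4 each, as for the levels that follow). In the labelled knockdown libraries the order then ran Tbk1 (3.29 ± 0.218 FPKM), Eif2ak2 (2.65 ± 0.528), Ddx58 (2.23 ± 0.325), Sting1 (2.03 ± 0.643), Ifih1 (1.40 ± 0.267), Dhx58 (0.609 ± 0.122), Zbp1 (0.517 ± 0.316), Cgas (0.266 ± 0.131) and Ikbke (0.211 ± 0.0184 FPKM). Neighbours in that order had ranges apart at 2 places, between Mavs and Tbk1 and between Ifih1 and Dhx58. In the wildtype libraries Mavs was followed by Eif2ak2 (4.93 ± 2.14 FPKM), Tbk1 (3.66 ± 0.490), Ddx58 (3.46 ± 1.22), Zbp1 (2.95 ± 2.37), Ifih1 (2.28 ± 0.613), Sting1 (1.81 ± 0.817), Dhx58 (0.944 ± 0.496), Ikbke (0.241 ± 0.0920) and Cgas (0.219 ± 0.0559 FPKM). There the ranges of neighbours were apart between Mavs and Eif2ak2 and between Dhx58 and Ikbke only. Zbp1 stood 8th of 10 in the labelled knockdown libraries and 5th in the wildtype libraries.

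**Figure D3:**
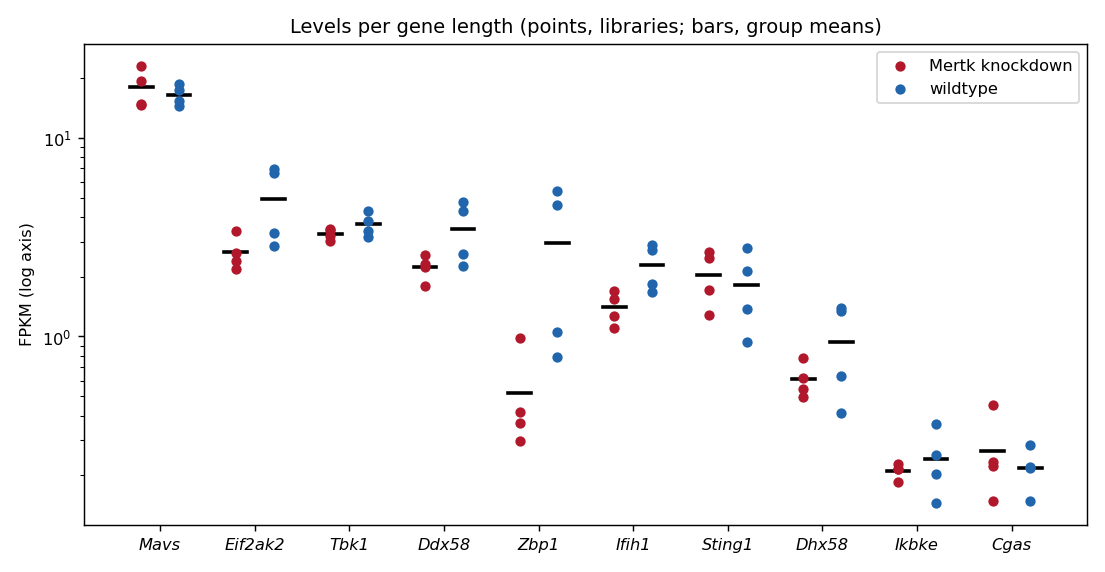
Deposited FPKM of the 10 genes on a log axis, with points for libraries and bars for group means, labelled Mertk knockdown (red) left of wildtype (blue), genes ordered by their wildtype mean. Mavs lies above all others in both groups, and the points of most neighbouring genes overlap.

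The members also differed in how widely the libraries of a group spread. The coefficient of variation of CPM was 59.3% in the labelled knockdown libraries and 77.8% in the wildtype libraries for Zbp1, 17.6% and 49.3% for Dhx58, 18.1% and 39.7% for Eif2ak2, and 12.5% and 31.5% for Ddx58. Tbk1 varied least in the labelled knockdown libraries (7.26%, and 9.52% in wildtype) and Mavs least in the wildtype libraries (24.0% in labelled knockdown, 7.67% in wildtype).

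Much of the wildtype spread came from the same libraries. Wildtype replicates 2 and 4 were the 2 highest of all 8 libraries for 6 of the 10 genes (Ifih1, Dhx58, Zbp1, Eif2ak2, Tbk1 and Ddx58), where 8.16% of all tested genes had this pattern. Labelled knockdown replicate 4 was the highest of its group for 6 genes as well (Ifih1, Dhx58, Zbp1, Eif2ak2, Ikbke and Ddx58), against 24.8% of all tested genes. The same wildtype libraries had the most macrophage marker RNA and the least hepatocyte marker RNA given above. The median log2 fold change was -0.49 for the macrophage markers and -0.41 for the 10 genes. Both sets were wide. The 10 genes ran from -2.49 for Zbp1 to 0.27 for Cgas, and the macrophage markers from -1.16 for Fcgr1 to 1.25 for Cx3cr1. The part of the macrophage markers in the sensors' differences was not tested. By the marker sums, only wildtype replicate 1 departed from its group in hepatocyte transcripts, so a hepatocyte score and the group can hardly be told apart. With the hepatocyte marker score as a covariate the log2 fold changes came to -0.41 for Zbp1, -0.33 for Ifih1, -0.18 for Eif2ak2, 0.016 for Ddx58 and 0.16 for Dhx58, none of them called. Within the 5 libraries rich in hepatocyte transcripts, 4 labelled knockdown and wildtype replicate 1, they were -0.62, -0.42, -0.34, -0.04 and -0.07, again with none called; the lone wildtype library was there assumed to vary like the others. In the same fits Cgas had 0.70 and 0.82 and Sting1 had 0.69 and 0.53, also not called.

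**Figure D4:**
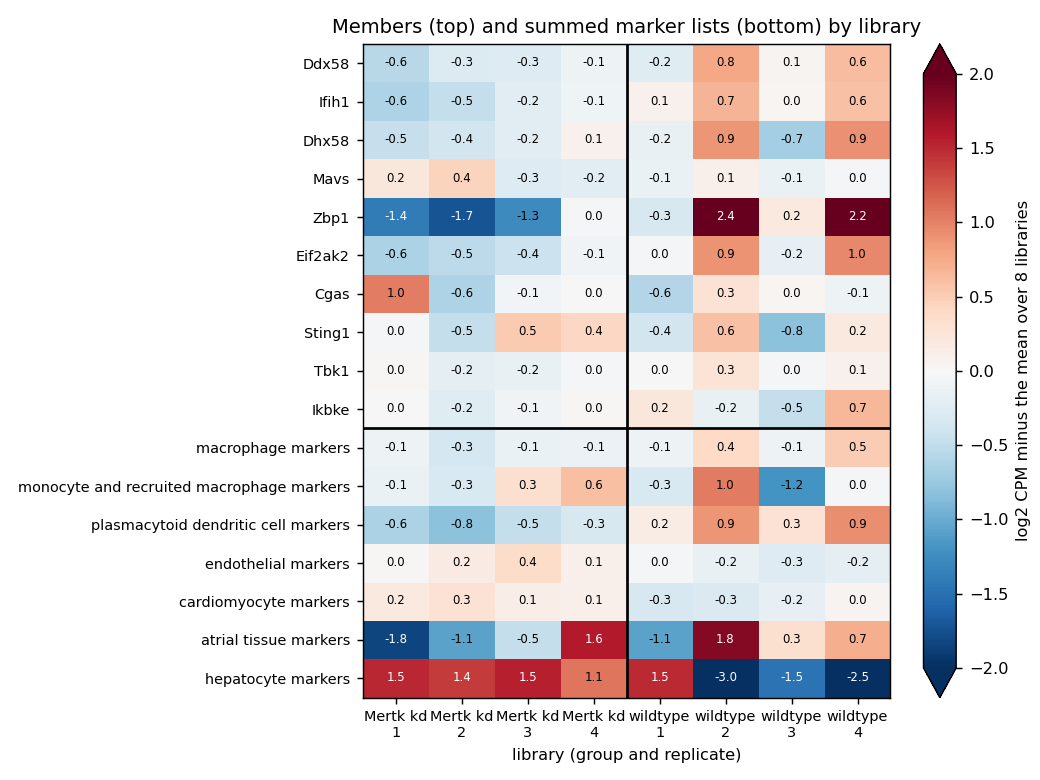
Heat map of log2 CPM minus the mean over the 8 libraries, for the 10 genes (top) and 7 summed marker lists (bottom), with labelled Mertk knockdown replicates 1 to 4 left of wildtype replicates 1 to 4 and red for values above the mean. Wildtype replicates 2 and 4 are high for Zbp1, Eif2ak2 and the macrophage sum and low for the hepatocyte sum.

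The genes most alike in pattern were found for the 3 members with the smallest p, as the Pearson r of log2 CPM over the 8 libraries. These r include the difference between groups and the shared high libraries, and they are given as a description. Ifih1 was nearest to Psmb9 (r = 0.990), an immunoproteasome subunit, Irf9 (r = 0.989), a subunit of ISGF3, and Tap1 (r = 0.986), a peptide transporter of antigen presentation. Zbp1 was nearest to Parp14 (r = 0.988), an ADP-ribosyltransferase, Siglec1 (r = 0.984), a macrophage surface lectin, and Irgm2 (r = 0.981), an immunity-related GTPase. Eif2ak2 was nearest to Cfb (r = 0.996), complement factor B, Parp14 (r = 0.992) and Irgm2 (r = 0.992). None of these partners passed edgeR's adjusted threshold, while DESeq2 called Irf9 lower in the labelled knockdown libraries (adjusted p = 0.00316).

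The pathways around the sensors were read from lists of their partners. Over all 17787 tested genes, edgeR called 0.371% lower and 0.275% higher, and 8913 lay below 0. DESeq2 called 1.62% of its 20305 genes lower and 1.26% higher. Of 26 partners of the RIG-I-like receptors, by edgeR's adjusted p 1 fell in the labelled knockdown libraries and 0 rose, with a median log2 fold change of -0.05. The one that fell was Irf7, the interferon-induced factor that the kinases phosphorylate, at 14.0 ± 3.56 CPM in the labelled knockdown libraries and 68.3 ± 13.4 CPM in the wildtype libraries (SD, n = 4 each; log2 fold change -2.28, SE 0.20, edgeR's adjusted p = 0.00125), and it passed under all 20 alternatives, with a largest adjusted p of 0.0310. Irf3, the constitutive relative, had a log2 fold change of -0.09 (adjusted p = 0.831 in edgeR). Trim25, the ubiquitin ligase that acts on RIG-I, had -0.36 (adjusted p = 0.197 in edgeR). DESeq2 called 2 of the 26 lower and 0 higher, Irf7 and Nlrc5. Nlrc5 was at 10.9 ± 2.22 CPM in the labelled knockdown libraries and 36.3 ± 22.7 CPM in the wildtype libraries (SD), without overlap. Its log2 fold change was -1.73 (edgeR's adjusted p = 0.191, DESeq2's adjusted p = 0.0251).

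Of 22 partners in DNA sensing, 0 passed the test in either direction and the median was -0.08. Samhd1, a triphosphohydrolase of deoxynucleotides, came nearest, with 30.1 ± 3.88 CPM in the labelled knockdown libraries and 61.0 ± 17.7 CPM in the wildtype libraries (SD, n = 4 each; log2 fold change -1.02, edgeR's adjusted p = 0.0614). It passed when wildtype replicate 1 was left out (edgeR's adjusted p = 0.0181) and in DESeq2 (adjusted p = 9.51e-05), and under none of the other 18 alternatives. With the hepatocyte covariate its log2 fold change was -0.48 (edgeR's adjusted p = 0.413), and in the 5 libraries with hepatocyte transcripts it was -0.57 (edgeR's adjusted p = 0.358). Rhbdf2, a STING trafficking cofactor, had a log2 fold change of 0.34 (edgeR's adjusted p = 0.205).

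None of the 11 partners of ZBP1 in cell death passed (median -0.10). Ripk3, its kinase partner, had a log2 fold change of 0.26 (edgeR's adjusted p = 0.725), and Mlkl, the pore-forming effector of necroptosis, had -0.39 (adjusted p = 0.614 in edgeR). Adar, the editor of double-stranded RNA that shares the Z-binding domain, had 22.8 ± 4.09 CPM in the labelled knockdown libraries and 33.5 ± 7.87 CPM in the wildtype libraries (SD, n = 4 each; log2 fold change -0.55, edgeR's adjusted p = 0.252). Gsdmd, a pore-forming protein of pyroptosis, had -0.39 (adjusted p = 0.572 in edgeR).

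Of 15 partners around PKR and eIF2, 0 passed, 13 lay below 0 and the median was -0.04. Of all 17787 tested genes, 8913 lay below 0. Chac1, a target of the integrated stress response that PKR can start, had a log2 fold change of -0.55 (edgeR's adjusted p = 0.369).

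Among 22 other double-stranded RNA binders and restriction enzymes, 2 fell and 0 rose by edgeR's adjusted p, and 18 lay below 0 with a median of -0.43. DESeq2 called 4 lower and 0 higher, Oasl1, Oas3, Ddx60 and Oas2. Ddx60 had a log2 fold change of -1.66 (edgeR's adjusted p = 0.0936, DESeq2's adjusted p = 1.59e-05). Oas2 had -1.05 (edgeR's adjusted p = 0.187, DESeq2's adjusted p = 0.00569). Oasl1, an OAS-like protein known to restrain Irf7 translation in mice, was at 1.51 ± 0.225 CPM in the labelled knockdown libraries and 6.78 ± 2.13 CPM in the wildtype libraries (SD, n = 4 each; log2 fold change -2.17, SE 0.26, edgeR's adjusted p = 0.00691). Its call was lost under 4 of 20 alternatives, among them the fits with the hepatocyte covariate (log2 fold change -1.48, adjusted p = 0.110 in edgeR), in the 5 libraries with hepatocyte transcripts (-1.35, adjusted p = 0.251 in edgeR) and with unfiltered log2(FPKM + 1) (adjusted p = 0.0924 in limma). Oas3, which makes the oligoadenylate that activates RNase L, was at 0.444 ± 0.133 CPM in the labelled knockdown libraries and 2.86 ± 1.32 CPM in the wildtype libraries (SD, n = 4 each; log2 fold change -2.68, SE 0.39, edgeR's adjusted p = 0.0174). The Oas3 call was lost under 10 of 20 alternatives. Among these were leaving out replicate 1, 3 or 4 of the labelled knockdown group (edgeR's adjusted p between 0.0521 and 0.0565), the atrial covariate (0.0542), the hepatocyte covariate (-1.80 on the log2 scale, adjusted p = 0.161), the 5 libraries with hepatocyte transcripts (adjusted p = 0.282) and the 3 fits on FPKM (adjusted p of 0.0807 to 0.251 in limma). Oas genes are a family of like sequences, so reads may be shared among them. The Oas3 promoter window holds the same response element core as the 3 sensors.
Oas3, chr5:120777715-120777744, minus strand, core from base -75: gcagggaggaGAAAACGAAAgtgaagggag
The windows of Irf7, Oasl1, Samhd1, Adar and Chac1 do not hold these letters, and Rhbdf2, Gsdmd and Usp18 had no window. The gamma-activated core was in the Samhd1 window and in 1 of the 3 Adar windows.

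Of 8 genes of the interferon receptor and ISGF3, 2 fell and 0 rose by edgeR's adjusted p, with a median of -0.48. DESeq2 called 3 of them lower and 0 higher. Usp18, the isopeptidase that dampens receptor signalling, was at 4.21 ± 1.37 CPM in the labelled knockdown libraries and 14.7 ± 4.85 CPM in the wildtype libraries (SD, n = 4 each; log2 fold change -1.81, SE 0.29, edgeR's adjusted p = 0.0330). The Usp18 call was lost under 13 of 20 alternatives. Leaving out any 1 labelled knockdown library, or wildtype replicate 2 or 4, gave adjusted p values of 0.0585 to 0.107 in edgeR. The atrial covariate gave 0.0746, the hepatocyte covariate 0.243 (log2 fold change -1.14), the 5 libraries with hepatocyte transcripts 0.313 (-1.23), and the 3 fits on FPKM 0.0592 to 0.170 in limma. The list had 0 called genes with the hepatocyte covariate and in the FPKM fits. The same held without labelled knockdown replicate 1, 2 or 3, and without wildtype replicate 2 or 4. Of 19 type I and III interferon genes, the ligands that the sensors would induce, 1 was listed, Ifna2, with 3 counts over all 8 libraries, and it was not tested.

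**Figure D5:**
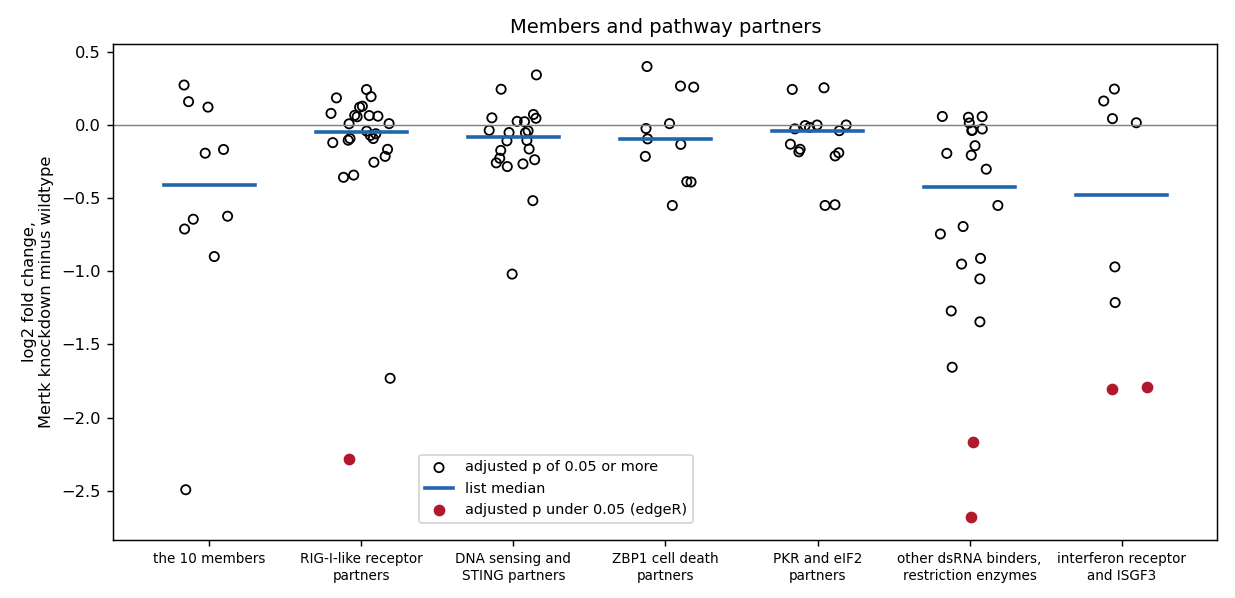
log2 fold change, labelled Mertk knockdown over wildtype, of each tested gene in the sensor set and in 6 partner lists; points are genes, filled red where edgeR's adjusted p is under 0.05, and blue bars are list medians. The medians run between -0.48 and -0.04, and the called genes all lie below 0.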

How the data were processed

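The authors deposited 1 table, whose columns are, per the file headers, whole-number read counts and FPKM of the 8 libraries. Per the labels' protocols, RNA with an integrity number above 7 was selected with oligo(dT), dUTP marked the second strand, and a NovaSeq read paired ends. The build was mm10 and the tools were StringTie 2.1.6, HISAT2 2.2.1, cutadapt 1.9, edgeR and DESeq2, per the submitters' processing notes, which give no roles. The annotation release and the strand setting of the counting are not given in the sources used here, so reads of overlapping genes on opposite strands may be shared.

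The deposited counts were tested as they are with edgeR 4.0.16 (R 4.3.3): TMM, filterByExpr, glmQLFit with robust = TRUE and glmQLFTest, two-sided, all 8 libraries, no covariate, with Benjamini-Hochberg adjustment over all 17787 tested genes and calls at 0.05. The log2 fold change is labelled Mertk knockdown over wildtype. The labels do not say that the replicates were separate mice, so p-values measure the spread between libraries, which may be technical. Exact permutation tests over libraries used log2 CPM (prior count 2) or log2 FPKM. A gene at 0 could be present at up to 0.0506 CPM, 3 counts in the shallowest library, for counting error only. Chi-square per degree of freedom between libraries of a group was 37.89 to 198.7, so no pair agreed within sampling noise. The script was tested on simulated data. Where a symbol stood on several rows, the row with the higher count was used.

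The 10 genes, the partner lists and the marker lists were chosen with earlier results of these data known. Named were the 10 genes, Mertk, up to 4 called genes of each partner list by smallest p (or the 2 with the smallest p where none was called), and the 3 genes most alike to each of the 3 members with the smallest p, among genes that averaged 1 CPM or more. Irf3, Trim25, Nlrc5, Ripk3, Mlkl, Ddx60, Oas2 and the single marker genes were named after their values were seen. For 1 gene that the rule takes, no result is reported here. Promoter windows came from RefSeq, build GRCm38.p6. Alternatives were DESeq2 1.42.0, RLE and upper quartile factors, other filters, limma 3.58.1 on log2(FPKM + 1) and log2(FPKM + 0.1), the replicate number as a block, hepatocyte or atrial marker scores as covariates, the libraries with hepatocyte transcripts, and leaving out each library.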

Additional observations from a re-analysis of the deposited data

Results flagged for a closer look

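Zbp1 was 3.77 CPM in labelled knockdown replicate 4, apart from the 1.18 to 1.60 CPM of the other 3 labelled knockdown libraries, and the gap was 0.838 of the group's range, more than Dixon's 95% limit for 4 samples. The Cgas to Sting1 ratio was -2.11 on the log2 FPKM scale in wildtype replicate 3, against -3.29 to -3.21 in the other 3 wildtype libraries, a gap of 0.934 of the range. These were 2 of 26 groups of 4 libraries examined, and chance alone marks about 1 in 20.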

How the results depend on the processing

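Of 200 values of the 10 genes under the alternatives, 191 kept their direction and their side of the threshold. DESeq2 called 3 of the 10, all lower in the labelled knockdown libraries, and every other alternative run called 0. The sign turned for Dhx58 (0.16) and Ddx58 (0.016) with the hepatocyte score as a covariate, and when libraries were left out in turn for Mavs (-0.023, without labelled knockdown replicate 2), Cgas (-0.14, without labelled knockdown replicate 1; at most 0.47), Ikbke (0.045, without wildtype replicate 4; at least -0.35) and Sting1 (-0.035, without wildtype replicate 3; at most 0.43). The cause was not tested. Leaving out each library gave log2 fold changes of -0.81 to -0.59 for Ifih1, -2.99 to -2.04 for Zbp1, -1.07 to -0.71 for Eif2ak2 and -0.80 to -0.47 for Ddx58. The differences of the ratios then ran from -0.12 to 0.23 for Ikbke over Tbk1, -0.12 to 0.22 for Dhx58 over Ddx58 and -0.39 to 0.26 for Cgas over Sting1, crossing 0 in each.

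Counts over all genes, 66 lower and 49 higher in the labelled knockdown libraries, moved more. They were 328 and 255 in DESeq2, 35 and 21 with log2(FPKM + 1), 39 and 29 with log2(FPKM + 0.1), 14 and 7 with log2(FPKM + 1) unfiltered, 12 and 10 with the hepatocyte covariate, 40 and 16 with the atrial covariate, and 23 and 19 in the 5 libraries with hepatocyte transcripts. Leaving out 1 library gave 29 to 100 lower and 15 to 165 higher, the highest of both without wildtype replicate 1, and only leaving out wildtype replicate 2 kept both within 1.5 times.

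Samples of the same number correlated at 0.0615, 6.3e-05, -0.0065 and 0.181 in their deviations from the group means, so the replicate numbers were not taken as pairs. With the replicate block, 0 of the 10 genes were called, all genes gave 19 lower and 5 higher, and Ifih1 had a log2 fold change of -0.70 (edgeR's adjusted p = 0.187). The calls of Oasl1 (edgeR's adjusted p = 0.0538), Oas3 and Usp18 (0.0528 each) were lost there, and that of Irf7 was kept (0.0152).

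Depth limits Cgas most, at 44 to 141 counts per library, and Zbp1, Dhx58 and Ikbke less so. Mertk itself was not lower in the libraries labelled for its knockdown, and hepatocyte transcripts separate most wildtype libraries from the rest.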
